A study of Mus musculus with 12 samples.

Results

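The interferon response genes examined here were 50 genes induced by type I interferon, by interferon-gamma or by both. They were chosen as a list of symbols, and all 50 were found among the 53801 genes of the count table. By role they comprised 12 antiviral effectors, 6 members of the OAS family, 5 nucleic acid sensors and kinases, 4 transcription factors, 3 genes of the ISG15 system and of feedback, 4 guanylate-binding proteins, 6 immunity-related GTPases, 3 genes of the PARP9 and DTX3L group, 6 other interferon-induced genes and the chemokine gene Cxcl9.

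Type I interferons bind the receptor IFNAR, and the kinases JAK1 and TYK2 then phosphorylate STAT proteins, among them STAT2, which acts with IRF9 in a complex that binds the interferon-stimulated response element (ISRE) in promoters. Interferon-gamma, made mainly by NK and T cells, binds IFNGR and acts through the gamma-activated site (GAS) and through IRF1. The induced proteins degrade or bind viral RNA, sense nucleic acids, attack the vacuoles of intracellular pathogens, or shut the signal off again. ATG5 is a component of the autophagy machinery, and with its partners it also takes part in the targeting of guanylate-binding proteins and immunity-related GTPases to such vacuoles.

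Eosinophils, the granulocytes of type 2 immunity, were isolated from the bone marrow and the blood of control (eoCre Il5tg) and Atg5-knockout (Atg5 flox/flox eoCre Il5tg) mice and profiled by RNA-seq in 4 groups of 3 libraries. All 4 groups carried the Il5 transgene, expressed in T cells from Cd3d sequences to raise eosinophil numbers, and the Cre allele, knocked into the eosinophil peroxidase gene Epx, so deletion was limited to cells that express Epx and neither group was wild-type at that locus. Cells were enriched by antibody depletion of lymphocytes and neutrophils, so no marker of eosinophils was selected for. The steps before depletion differed by tissue. Marrow was flushed from the bones and filtered, while blood was spun over a density medium and its red cells were lysed in water. Tissue and isolation procedure therefore cannot be told apart in any comparison of blood with marrow. Age and sex of the animals behind these libraries were not given in the sources used here. The purity of the isolations for RNA-seq was given for n = 3, a number that in the methods counts independent experiments. No source used here ties a library to an animal, so p-values measure the spread between these libraries.

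Total counts per library ran from 18885052 to 30270166. All 10 eosinophil markers had counts in every group. Their summed level was 72237 to 94536 CPM (read counts relative to the TMM-scaled library total) in bone marrow and 17483 to 47259 CPM in blood. Markers of this list went different ways. Prg2 was at 41379 to 55625 CPM in marrow and 7047 to 23815 CPM in blood, and Epx at 3350 to 5140 and 265 to 946 CPM. Siglecf was higher in blood, at 345 to 464 CPM in marrow and 592 to 931 CPM in blood. Ccr3 (586 to 1119 and 1026 to 1976 CPM) and Il5ra (64.8 to 89.7 and 38.6 to 70.7 CPM) overlapped between tissues. Both blood libraries numbered 1 stood apart in lymphocyte markers: their 8 B cell markers summed to 1281 CPM in control and 2212 CPM in knockout, against at most 423 CPM in the other 4 blood libraries, and their 8 T cell markers to 149 and 208 CPM against at most 37.7 CPM. Control blood library 1 also held 168091 CPM of 9 red cell markers, against 4584 to 16622 CPM in the other blood libraries. Atg5 was at 41.4, 45.4 and 40.5 CPM in control bone marrow and at 30.6, 31.3 and 33.9 CPM in knockout bone marrow (log2 fold change -0.44, SE 0.108, adjusted p = 0.157), and at 45.3, 58.8 and 40.1 CPM in control blood and 36.7, 52.5 and 52.4 CPM in knockout blood (log2 fold change -0.01, SE 0.225, adjusted p = 1). These were counts over the whole gene, which do not check the deleted exon. The paper examined Atg5 by qPCR and ATG5 protein by immunoblot in eosinophils of both tissues and genotypes. It also cites its earlier report that Atg5-knockout eosinophils lack autophagy. In such bulk samples, fewer cells of a type and less RNA per cell cannot be told apart.

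The promoter sequences of the members showed how densely the interferon motifs are packed in front of these genes. Of the 50 members, 38 had a promoter window in the RefSeq table for GRCm38.p6, reaching from 250 bases before to 50 bases after each start. The core of the ISRE, searched on both strands as GAAA repeated after 2 bases of any kind, was found in 23 of these 38 members (60.5%), against 1079 of 27025 genes (3.99%). The GAS, searched as the palindrome TTCNNNGAA, was found in 12 members (31.6%), against 2582 of 27025 genes (9.55%). Matches of the motifs can overlap each other. In total 8 members held both motifs and 11 held neither, and 11 held more than 1 ISRE match. A match is a string of letters and not a measured binding site.

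Stretches of 160 bases that end just before a RefSeq start of 6 members are printed below 5′ to 3′ on the strand of the gene, with ISRE matches in capitals. These genes span the responses described further on: Isg15, Oas3, Ifit3, Rsad2 and Gbp2 had higher levels in blood in at least 1 genotype, and Irgm2 was lower in blood in both. The coordinates on GRCm38.p6 were chr4:156200819-156200978 (minus strand) for Isg15, chr5:120777660-120777819 (minus) for Oas3, chr19:34583369-34583528 (plus) for Ifit3, chr12:26456453-26456612 (minus) for Rsad2, chr3:142620503-142620662 (plus) for Gbp2 and chr11:58214817-58214976 (plus) for Irgm2.
Isg15: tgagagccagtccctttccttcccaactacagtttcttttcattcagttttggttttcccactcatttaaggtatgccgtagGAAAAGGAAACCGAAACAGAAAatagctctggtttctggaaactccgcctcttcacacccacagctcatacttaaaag
Oas3: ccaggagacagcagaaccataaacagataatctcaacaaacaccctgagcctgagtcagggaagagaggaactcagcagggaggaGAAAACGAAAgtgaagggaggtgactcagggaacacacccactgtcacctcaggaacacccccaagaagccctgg
Ifit3: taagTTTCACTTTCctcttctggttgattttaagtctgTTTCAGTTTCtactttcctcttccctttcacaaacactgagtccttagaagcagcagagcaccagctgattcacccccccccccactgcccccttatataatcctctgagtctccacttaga
Rsad2: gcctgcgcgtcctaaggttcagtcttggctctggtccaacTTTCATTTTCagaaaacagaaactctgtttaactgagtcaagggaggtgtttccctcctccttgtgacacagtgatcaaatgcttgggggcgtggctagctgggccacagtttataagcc
Gbp2: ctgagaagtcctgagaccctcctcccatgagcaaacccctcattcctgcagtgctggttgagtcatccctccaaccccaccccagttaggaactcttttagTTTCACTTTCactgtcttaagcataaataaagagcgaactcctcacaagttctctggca
Irgm2: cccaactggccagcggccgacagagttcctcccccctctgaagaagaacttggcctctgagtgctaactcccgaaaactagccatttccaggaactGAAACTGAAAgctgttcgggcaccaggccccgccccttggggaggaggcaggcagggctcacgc
Isg15 carried a run of 3 overlapping matches, whose first bases lay at -78, -72 and -66 from the start. Ifit3 carried 2 matches on the opposite strand, at -156 and -122. The single match of Oas3 lay at -75, of Rsad2 at -120, of Gbp2 at -59 and of Irgm2 at -64.

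**Figure D1:**
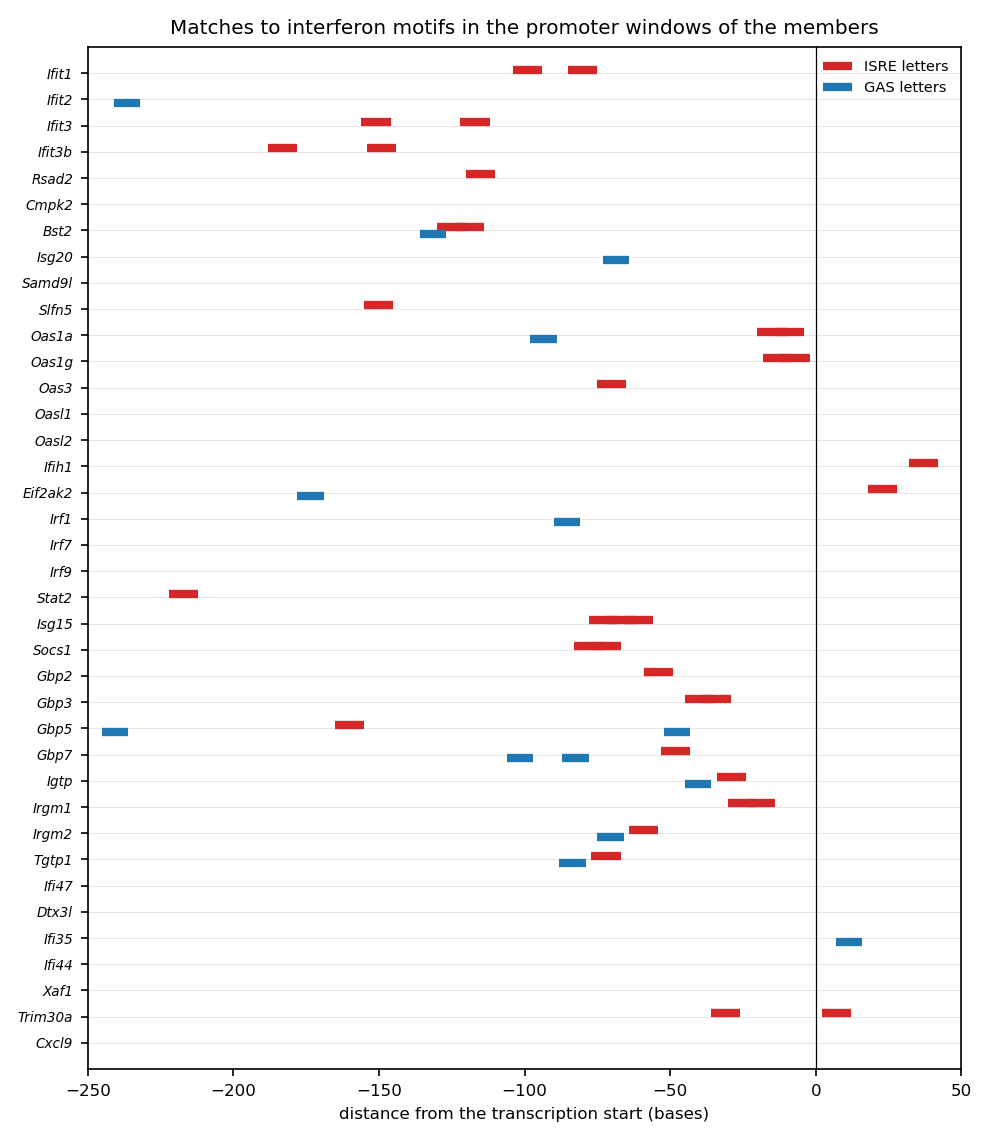
Positions of ISRE (the repeated GAAA, either strand) and GAS (TTCNNNGAA) matches in the promoter windows of the members, one line of the vertical axis per gene. The horizontal axis is the distance from the transcription start in bases. In 20 of the 23 members with an ISRE match, all its ISRE matches began before the start.

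Levels between members were compared as CPM per kilobase of the exon length given in the table. Ifi27l2a, a small mitochondrial and nuclear envelope protein gene, led the list with a mean over the 4 groups of 140 CPM per kb, at 30.5 in control bone marrow, 52.7 in knockout bone marrow, 211 in control blood and 264 in knockout blood. Bst2, which encodes tetherin and holds budding virions at the cell surface, followed at 93.3 CPM per kb, then Isg15 at 40.3, the feedback inhibitor Socs1 at 32.7 and Ifi35 at 30 CPM per kb. Bst2 was nearly level, with 88.3 to 106 CPM per kb in the 4 groups. At the other end lay the GTPase genes Iigp1 (0.0756 CPM per kb) and Tgtp1 (0.0468), Cxcl9 (0.0535) and Ifi44 (0.0438). None of these 4 genes passed the filter on low counts in a comparison of 6 libraries, and Iigp1 and Ifi44 passed it in the fit of all 12. Cxcl9, a chemokine gene typical of interferon-gamma, had 0.0913, 0.114 and 0.0663 CPM in control bone marrow, 0.0341, 0.0631 and 0.0368 CPM in knockout bone marrow, 0.366, 0.132 and 0.147 CPM in control blood and 0.343, 0.542 and 0 CPM in knockout blood. Tgtp1 shares 99.8% of its aligned transcript with Tgtp2, and reads that fit both places were not counted, so its level is uncertain.

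**Figure D2:**
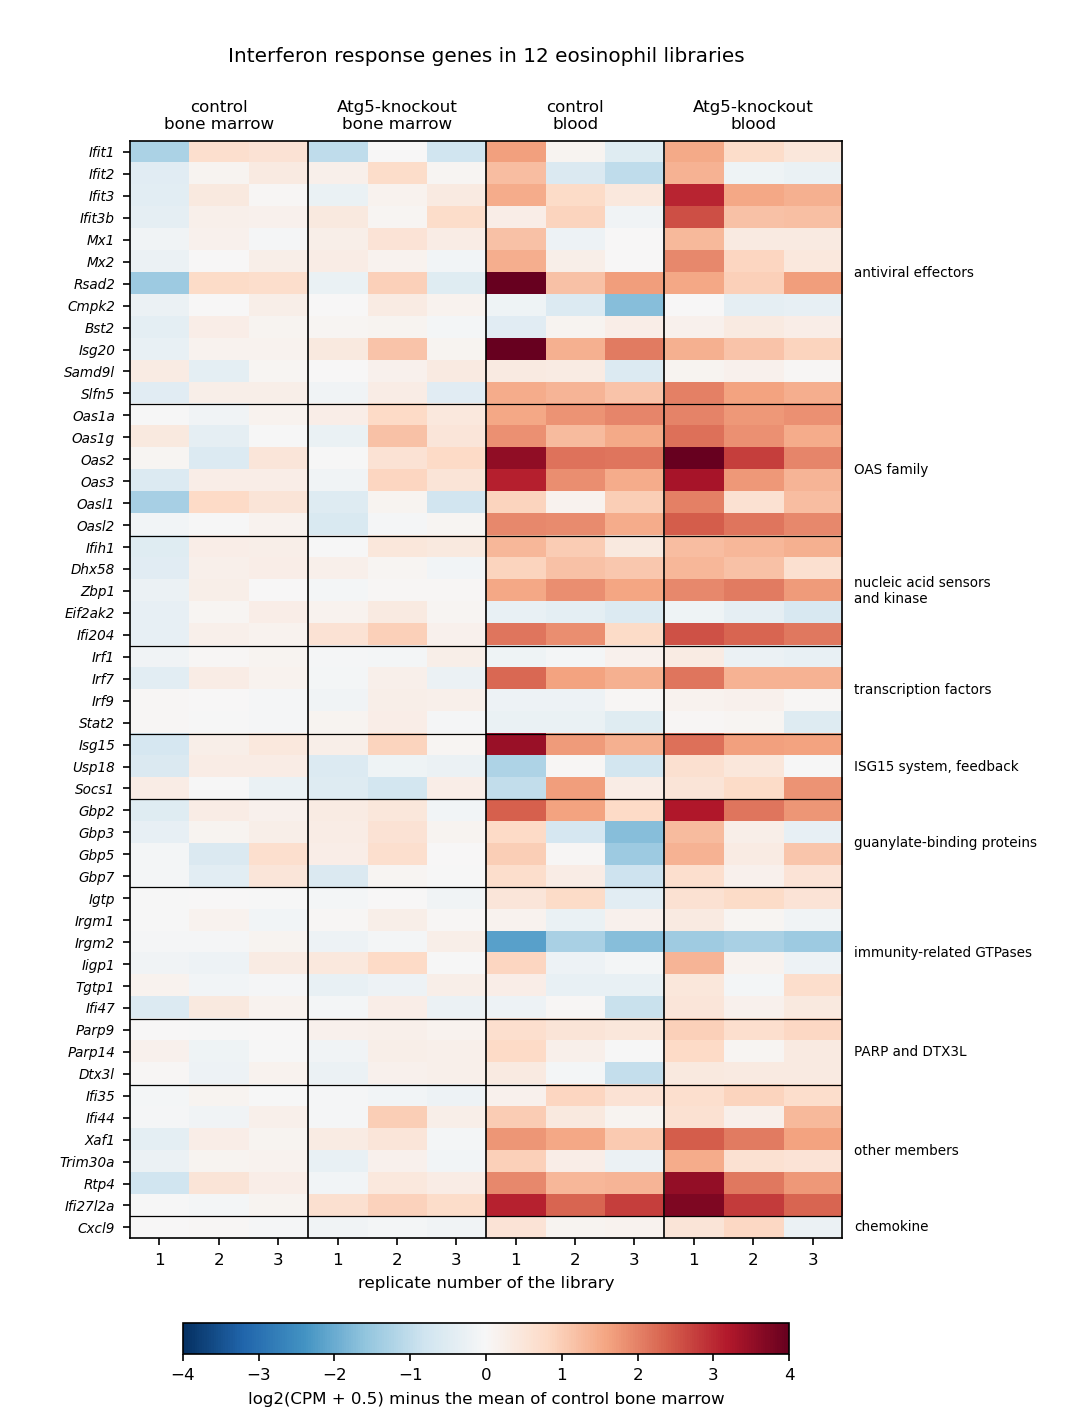
Colour gives log2(CPM + 0.5) of each member in each of the 12 libraries minus the mean of control bone marrow, with genes in rows by role and libraries in columns by group and replicate number; colours saturate at 4 in either direction. Oas2, Oas3, Oasl2, Ifi27l2a, Isg15 and Irf7 are red across all 6 blood libraries, while Irgm2 is blue there.

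The comparison of tissues asked which members differed between mature eosinophils in the circulation and those still in the marrow, separately within each genotype. In control mice, 19 of 45 tested members were higher in blood and 1 was lower at an adjusted p under 0.05, where 16.2% of all 13669 tested genes were higher and 18% lower. In knockout mice, 28 of 46 tested members were higher and 2 were lower, where 23.5% of 13853 genes were higher and 24.1% lower. The median log2 fold change of the tested members was 0.54 in control and 1.04 in knockout, against 0.00 and -0.01 over all genes tested. Past a log2 fold change of 2, 7 members were higher in control (4.38% of all genes) and 8 in knockout (5.26%), and none was lower (5.19% and 6.13% of all genes). These counts rested in part on the blood libraries numbered 1. Without that of control, 3 of 46 members were higher past this fold, where 563 of 14099 genes were. Without that of knockout, 2 of 47 members were, where 736 of 14277 genes were. Without knockout blood library 3 or knockout bone marrow library 2, 12 members were (881 of 14439 and 718 of 14338 genes). A positive fold change was found in 34 members in control (49.9% of all genes) and 40 in knockout (49.5%). All blood libraries lay above all marrow libraries of the genotype for 21 members in control (23.5% of all genes) and 31 in knockout (27.7%), and below them for 2 members in each (26.6% and 32.3%). These 2 comparisons shared no library, but blood libraries with the same number deviated together across genotypes, so the comparisons are not independent. In both, 17 members were higher, which is 89.5% of the control list and 60.7% of the knockout list, and Irgm2 was lower. The same overlap over all genes is not given here.

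**Figure D3:**
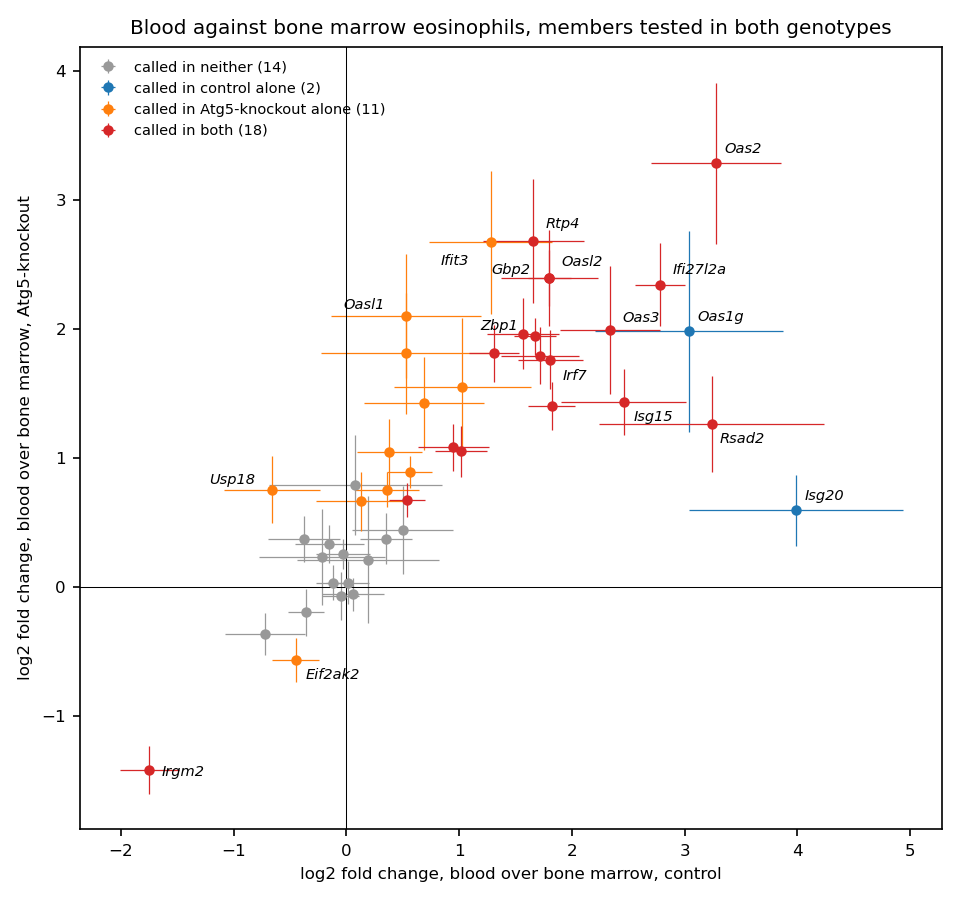
Log2 fold change of blood over bone marrow in control (horizontal) and in Atg5-knockout (vertical) for the members tested in both, with standard errors as bars and colours for the comparisons in which a member was called. Most points lie above 0 on both axes, with Oas2 at 3.28 on each, and Irgm2 lies at -1.75 and -1.42.

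In the OAS family, 5 of 6 genes were higher in blood in each genotype. These enzymes make short oligoadenylates that switch on RNase L, and Oasl1 is a relative that acts without this product. Oas1a, Oas2, Oas3 and Oasl2 were higher in blood in both genotypes, Oas1g passed in control and Oasl1 in knockout. Oas2 (chr5:120730333-120749853, minus strand) was at 0.852, 0.38 and 1.29 CPM in control bone marrow, 0.784, 1.42 and 1.73 CPM in knockout bone marrow, 14.5, 5.32 and 5.21 CPM in control blood and 25, 8.17 and 4.5 CPM in knockout blood. All 6 blood libraries lay above all 6 marrow libraries, with a log2 fold change of 3.28 (SE 0.575, adjusted p = 0.00298) in control and 3.28 (SE 0.627, adjusted p = 0.00267) in knockout. Oasl2 was at 13.8, 14.8 and 16.9 CPM in control bone marrow, 9.78, 14.7 and 16.1 CPM in knockout bone marrow, 58.9, 57.8 and 43.3 CPM in control blood and 83.7, 68.1 and 58.9 CPM in knockout blood. Its groups were tight and apart, with log2 fold changes of 1.8 (SE 0.189, adjusted p = 0.000222) and 2.39 (SE 0.217, adjusted p = 4.95e-05). Oas1g, close to the limit of detection, was at 0.335, 0 and 0.133 CPM in control bone marrow, 0.0341, 0.946 and 0.405 CPM in knockout bone marrow, 1.77, 1.06 and 1.33 CPM in control blood and 2.44, 1.76 and 1.28 CPM in knockout blood. Its transcript is 97.6% identical to that of Oas1a over the aligned bases, and its call in control (log2 fold change 3.04, SE 0.83, adjusted p = 0.0215) was lost without control bone marrow library 3 (adjusted p = 0.103).

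Among the 12 antiviral effectors, Rsad2 and Slfn5 were higher in blood in both genotypes, Isg20 in control alone, and Ifit1, Ifit3, Ifit3b and Mx2 in knockout alone, which does not show that the genotypes differed for them. Isg20 (chr7:78913424-78920396, plus strand), an exonuclease that degrades single-stranded RNA, was at 6.88, 9.65 and 9.67 CPM in control bone marrow, 11.5, 19.6 and 9.43 CPM in knockout bone marrow, 359, 23.8 and 38.2 CPM in control blood and 23.8, 19.8 and 16.6 CPM in knockout blood. Control blood library 1 was far above the rest. The log2 fold change in control was 3.99 (SE 0.947, adjusted p = 0.0119), and without that library it was 1.82 (adjusted p = 0.000324). Without control bone marrow library 1 the adjusted p was 0.0598. Rsad2 (chr12:26442746-26456452, minus strand), which encodes viperin, a maker of a chain-terminating nucleotide, showed the same library: 4.14, 21.1 and 20.6 CPM in control bone marrow, 10.2, 24.2 and 8.66 CPM in knockout bone marrow, 369, 28.5 and 40.2 CPM in control blood, and 37.2, 24.2 and 40.6 CPM in knockout blood. Its log2 fold change in control was 3.24 (SE 1, adjusted p = 0.0355) and fell to 1.16 (adjusted p = 0.0922) without control blood library 1, a call that was also lost without any 1 of the control bone marrow libraries (adjusted p 0.0856 to 0.111) and with limma-voom (adjusted p = 0.0655). In knockout the value was 1.26 (SE 0.375, adjusted p = 0.0219).

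The IFIT proteins bind viral RNA at its cap. Ifit3 was at 0.426, 1.14 and 0.795 CPM in control bone marrow, 0.545, 0.883 and 1.11 CPM in knockout bone marrow, 2.99, 1.63 and 1.18 CPM in control blood and 9.95, 3.16 and 2.86 CPM in knockout blood. All blood libraries again lay above the marrow libraries, with a log2 fold change of 2.67 (SE 0.554, adjusted p = 0.004) in knockout and 1.28 (SE 0.545, adjusted p = 0.101) in control. Without knockout blood library 1, the highest, the knockout value was 1.85. Ifit3b was tested in knockout only, where its log2 fold change was 2.07 (SE 0.609, adjusted p = 0.0207) and its call was lost without the same library (1.24, adjusted p = 0.071). Its transcript is 97.2% identical to Ifit3, so the pair cannot be fully told apart by short reads. The effectors Bst2, Cmpk2, Ifit2, Mx1 and Samd9l did not pass in either genotype, with log2 fold changes between -0.72 and 0.5.

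Of the sensors, Ifih1 (MDA5) and Dhx58 (LGP2), which detect viral RNA, Zbp1, which binds Z-form nucleic acid, and Ifi204, which binds DNA, were higher in blood in both genotypes. Zbp1 was at 17.5, 24.5 and 20.7 CPM in control bone marrow, 19.7, 21.5 and 21.3 CPM in knockout bone marrow, 62, 76 and 63 CPM in control blood and 79.6, 90.1 and 68.1 CPM in knockout blood (log2 fold change 1.67, SE 0.187, adjusted p = 0.000319 in control and 1.94, SE 0.141, adjusted p = 1.49e-05 in knockout). Eif2ak2, the kinase PKR that halts translation, went the other way, with -0.45 (SE 0.208, adjusted p = 0.127) in control and a decrease in knockout (-0.57, SE 0.173, adjusted p = 0.0238).

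Of the transcription factors Irf1, Irf7, Irf9 and Stat2, Irf7 passed in both genotypes and the other 3 in neither. Irf7 (chr7:141262706-141266481, minus strand), the factor that amplifies type I interferon production, was at 11.5, 19.6 and 17.2 CPM in control bone marrow, 14.9, 18.2 and 13.3 CPM in knockout bone marrow, 78.5, 49.1 and 43 CPM in control blood and 70.4, 42.4 and 41.9 CPM in knockout blood. The blood and marrow libraries did not overlap, and the log2 fold change was 1.81 (SE 0.285, adjusted p = 0.0018) in control and 1.76 (SE 0.231, adjusted p = 0.000367) in knockout. Irf9 was at 50.3, 49.8 and 47.3 CPM in control bone marrow, 44.6, 57.3 and 56.5 CPM in knockout bone marrow, 42.9, 42.9 and 51 CPM in control blood and 54.1, 55.3 and 51.1 CPM in knockout blood. Stat2 was at 32.9, 31.3 and 30.4 CPM in control bone marrow, 33.7, 37.9 and 30.3 CPM in knockout bone marrow, 26, 25.9 and 22.3 CPM in control blood and 32.2, 33.6 and 22.1 CPM in knockout blood. Irf1, the main factor of the interferon-gamma response, was at 70, 80.4 and 84.2 CPM in control bone marrow, 74.8, 73.3 and 91.6 CPM in knockout bone marrow, 68.4, 73.2 and 87.6 CPM in control blood and 97.1, 65.6 and 63 CPM in knockout blood. The log2 fold changes of these 3 genes lay between -0.36 and 0.03, and the groups overlapped except for Stat2 in control (adjusted p = 0.111).

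Isg15 (chr4:156199424-156200818, minus strand), a ubiquitin-like protein attached to other proteins during the response, was at 6.21, 12.1 and 13.9 CPM in control bone marrow, 12.1, 19.3 and 10.8 CPM in knockout bone marrow, 116, 34.1 and 28.1 CPM in control blood and 48.2, 32.4 and 31.8 CPM in knockout blood. It was higher in blood in both genotypes (log2 fold change 2.46, SE 0.552, adjusted p = 0.00934 in control and 1.43, SE 0.257, adjusted p = 0.00192 in knockout), and without control blood library 1 the control value was 1.53 (adjusted p = 0.00251). Usp18 (chr6:121245906-121270917, plus strand), which removes ISG15 and damps the type I receptor, was at 4.23, 8.28 and 8.25 CPM in control bone marrow, 4.36, 5.9 and 5.56 CPM in knockout bone marrow, 2.56, 6.86 and 3.78 CPM in control blood and 10.6, 9.21 and 6.49 CPM in knockout blood. It was higher in knockout blood than knockout marrow (0.75, SE 0.259, adjusted p = 0.0394), a call lost without knockout blood library 1 or 2 or any 1 knockout marrow library (adjusted p 0.0664 to 0.15), and in control it was at -0.66 (SE 0.423, adjusted p = 0.261). Socs1, the inhibitor of the JAK kinases, was scattered, at 81.2, 66.2 and 54.7 CPM in control bone marrow, 46.8, 40 and 79.9 CPM in knockout bone marrow, 33.6, 214 and 81.8 CPM in control blood and 94.9, 113 and 234 CPM in knockout blood. It passed in knockout (1.42, SE 0.363, adjusted p = 0.011), a call lost without knockout bone marrow library 1 or 2 (adjusted p = 0.0559 and 0.0534), and in control it was at 0.69 (SE 0.534, adjusted p = 0.348), or 1.13 (adjusted p = 0.0199) without control blood library 1.

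The GTPases that act on pathogen vacuoles gave a mixed picture. Gbp2 was higher in blood in both genotypes, at 2.98, 5.55 and 5.04 CPM in control bone marrow, 5.59, 6.12 and 4.05 CPM in knockout bone marrow, 25.1, 14.5 and 8.01 CPM in control blood and 44.4, 20.9 and 16.3 CPM in knockout blood (log2 fold change 1.8, SE 0.428, adjusted p = 0.0122 in control and 2.39, SE 0.373, adjusted p = 0.000926 in knockout). Gbp7 was higher in knockout (0.66, SE 0.228, adjusted p = 0.0391), while Gbp3 and Gbp5 did not pass in either genotype. Of the immunity-related GTPases tested, Irgm2 (chr11:58199618-58222782, plus strand) was the only member lower in both genotypes, at 21.5, 21.5 and 24 CPM in control bone marrow, 19.1, 21.2 and 26.2 CPM in knockout bone marrow, 4.58, 8.84 and 6.53 CPM in control blood and 7.97, 8.85 and 7.77 CPM in knockout blood. It was lower in blood by a log2 fold change of -1.75 (SE 0.262, adjusted p = 0.00138) in control and -1.42 (SE 0.184, adjusted p = 0.000342) in knockout. The window printed above carries ISRE letters, but it belongs to a RefSeq start inside the counted span of Irgm2. No window of Irgm2 at the start of that span was searched. The neighbouring gene Igtp, whose exons overlap those of Irgm2 in part, was higher in blood in knockout (0.75, SE 0.136, adjusted p = 0.00206), and Irgm1 was level (0.01 and 0.03).

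Ifi27l2a, the most abundant member per length, was at 13.8, 13.2 and 15.3 CPM in control bone marrow, 22.1, 27.1 and 23.9 CPM in knockout bone marrow, 122, 72.1 and 99.4 CPM in control blood and 193, 101 and 73.4 CPM in knockout blood. It was higher in blood by 2.78 (SE 0.22, adjusted p = 4.59e-05) in control and 2.34 (SE 0.32, adjusted p = 0.000456) in knockout on the log2 scale. Rtp4, a chaperone of receptors, was at 0.913, 3 and 2.42 CPM in control bone marrow, 1.77, 2.78 and 2.51 CPM in knockout bone marrow, 8.78, 5.67 and 5.8 CPM in control blood and 27.2, 10 and 7.56 CPM in knockout blood. It was higher in both genotypes (1.66, SE 0.451, adjusted p = 0.021 and 2.68, SE 0.479, adjusted p = 0.00188), as was Xaf1 (1.57, SE 0.32, adjusted p = 0.00611 and 1.96, SE 0.276, adjusted p = 0.000547). Ifi35 and Trim30a passed in knockout only. Of the exon bases of Ifi35 16.8% and of those of Rtp4 13.9% overlap another gene, and reads there were not counted. In the PARP9 and DTX3L group, whose first 2 proteins form a complex at damaged DNA and at interferon-induced genes, Parp9 was higher in both genotypes (0.54, SE 0.16, adjusted p = 0.0296 and 0.67, SE 0.134, adjusted p = 0.00324), while Dtx3l and Parp14 did not pass.

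**Figure D4:**
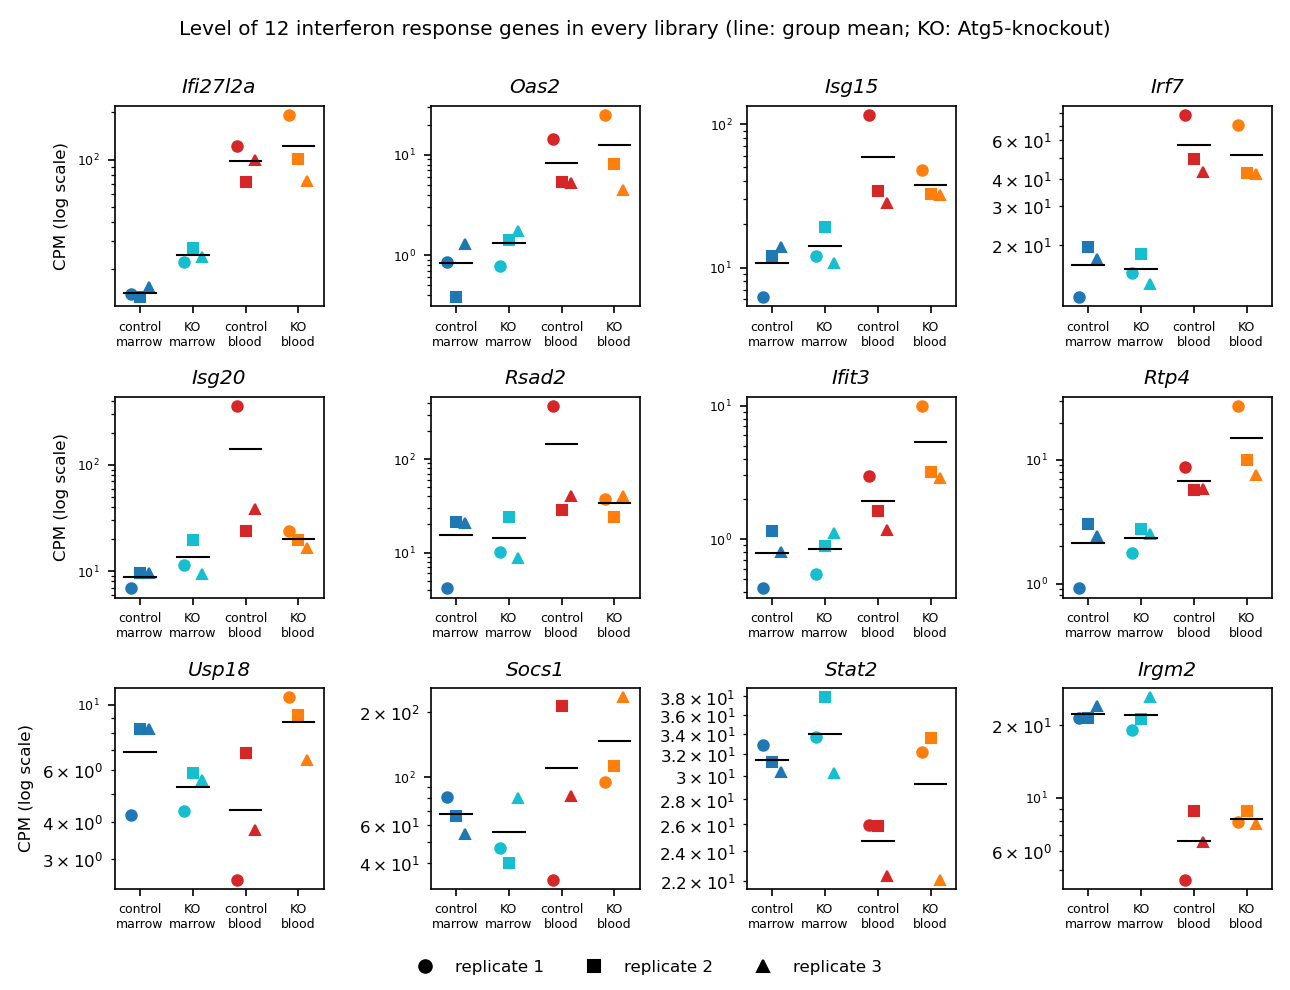
CPM on a log scale of 12 members in every library, with 1 panel per gene, a marker shape per replicate number and a line at each group mean; KO stands for Atg5-knockout. In the panels of Isg20, Rsad2 and Isg15, control blood library 1 lies above every other library, at 359, 369 and 116 CPM.

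Of the members called between tissues, 13 of 20 in control and 21 of 30 in knockout stayed called when any single library was left out, and none of them changed sign. The same share over all called genes is not given here. Markers of other cells moved with the same comparison. The 6 NK cell markers summed to 2.25 to 5.56 CPM in the marrow libraries and 287 to 603 CPM in the blood libraries, and the T cell markers to 5.84 to 7.66 CPM in marrow, where Cd3e was at 0, and 12.4 to 208 CPM in blood. Neutrophil markers (11 genes) summed to 14055 to 18011 CPM in marrow and 10407 to 13910 CPM in blood. Single genes of this list differed far more than the sum. Mpo was at 1025 to 1554 CPM in marrow and 5.1 to 9.27 CPM in blood, and Elane at 484 to 791 and 0.511 to 1.36 CPM. Ly6g overlapped, at 27.1 to 57 CPM in marrow and 23.4 to 58.6 CPM in blood. The part of these cells in the members' values was not tested. Without control blood library 1, 19 members were higher and 3 lower in control (median 0.46), and without knockout blood library 1, 24 were higher and 3 lower in knockout (median 0.90). Over all genes these fits gave 2808 higher and 3118 lower of 14099 in control, and 3684 and 4072 of 14277 in knockout. With scaling by library size alone, which moved the median of all genes to -0.31 in control and -0.24 in knockout, all genes split into 1308 higher and 3906 lower in control, against 2212 and 2466 with TMM, and into 2258 and 4333 in knockout, against 3256 and 3336. The members then split into 17 higher and 3 lower (median 0.23) in control and 24 and 3 (median 0.83) in knockout.

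The ligands of the pathway were almost silent. Among 10 interferon genes, Ifng alone reached the filter: it had no count in the 6 marrow libraries, 44, 20 and 11 counts in control blood and 14, 13 and 6 counts in knockout blood. Against a floor of 3 counts over the marrow group, this is at least 37.6-fold higher in control blood and at least 14.9-fold higher in knockout blood, a bound from counting alone, and NK and T cell markers were higher in the same libraries. Between genotypes in blood, Ifng had a log2 fold change of -1.41 (SE 0.737, adjusted p = 1). Of the other interferon genes, Ifnk had 1 count and Ifnl2 had 3 counts over all libraries and the rest had none. Among the 6 receptor genes, Ifngr1 was higher in blood in control (0.73, SE 0.176, adjusted p = 0.0126) and in knockout (0.63, SE 0.143, adjusted p = 0.00618), and Ifnar2 (-0.57, SE 0.117, adjusted p = 0.00372) and Ifngr2 (-0.5, SE 0.14, adjusted p = 0.0175) were lower in knockout blood.

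In the JAK-STAT list, 4 of 9 genes were higher in blood in control and 5 in knockout, and none was lower. Here and for the lists that follow, the shares over all genes were again 16.2% higher and 18% lower in control and 23.5% and 24.1% in knockout. The largest were Socs3 (1.45, SE 0.444, adjusted p = 0.0337) and Jak1 (1.18, SE 0.177, adjusted p = 0.00142) in control and Socs3 (2.11, SE 0.386, adjusted p = 0.00215) and Jak2 (1.16, SE 0.184, adjusted p = 0.001) in knockout. Of 17 tested genes of the sensing pathway upstream of interferon, which holds sensors, adaptors, kinases and transcription factors, 7 were higher and 1 lower in control and 7 and 4 in knockout, led by Cgas, the DNA sensor (-2.24 and -2.27), and Tlr7 (1.73 and 2.06). Of 52 other interferon-induced genes, 22 were higher and 4 lower in control, with Ube2l6 (3.97) and Ly6a (3.73) in front, and 27 were higher and 5 lower in knockout, with Ly6a (4.91) and Cd274 (4.03) in front. Ube2l6, which charges ISG15, was at 1022 CPM in control blood library 1 and at 61.9 and 130 CPM in the other control blood libraries.

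The comparison of genotypes in bone marrow asked whether loss of Atg5 altered the members before the cells left the marrow. Of 45 tested members, 1 was higher in knockout and none lower, where 0.145% of 13781 genes were higher and 0.203% lower. None was past a log2 fold change of 2 (0.0653% of all genes higher and 0.029% lower). At an unadjusted p under 0.05, 4 members were higher (4.36% of all genes) and none lower (5.31%), and for 4 members all knockout libraries lay above all control libraries (8.69%), for none below (5.67%). The median log2 fold change was 0.08, against 0.00 over all genes, and 29 of 45 members had a positive value (50.6% of all genes). The member called was Ifi27l2a (chr12:103442167-103443680, minus strand), whose 3 knockout libraries (22.1, 27.1 and 23.9 CPM) all lay above the 3 control libraries (13.8, 13.2 and 15.3 CPM), with a log2 fold change of 0.76 (SE 0.127, adjusted p = 0.0238), a 1.69-fold higher level. The call was lost when any single library other than control bone marrow library 1 was left out (adjusted p 0.053 to 0.168) and in the fit of all 12 libraries (adjusted p = 1). It was also lost with the replicate block. With DESeq2 and with limma-voom, 1 member was called higher, as in the main fit (lowest adjusted p 8.5e-05 and 0.0290). The same count was found with DESeq2-type size factors, library size alone and the filter of 1 CPM (lowest adjusted p 0.0256 to 0.0284). In blood the same gene overlapped between genotypes.

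The next members by p in bone marrow were Oas1a, Ifi204, Isg20 and Ifit1, none of which passed. Oas1a was at 6.85, 6.35 and 7.82 CPM in control and 8.49, 12.6 and 9.58 CPM in knockout (0.52, SE 0.178, adjusted p = 0.37), and at 21.2, 25.3 and 28.6 CPM in control blood and 29.1, 24.7 and 26.2 CPM in knockout blood. Ifi204, which shares sequence with Ifi211, was at 6.42, 9.31 and 8.91 CPM in control and 12.5, 16.1 and 9.17 CPM in knockout marrow (0.59, SE 0.213, adjusted p = 0.394), and at 37.3, 30.7 and 14.2 CPM in control blood and 50.1, 43.1 and 36.3 CPM in knockout blood. For Oas1a the marrow groups did not overlap, while for Ifi204 they did. Ifit1 was at 0.639, 3.84 and 3.54 CPM in control and 0.852, 2.24 and 1.07 CPM in knockout marrow (-0.96, adjusted p = 0.61), with control library 1 the lowest of the 6, and at 7.93, 2.42 and 1.42 CPM in control blood and 7.33, 3.97 and 3.22 CPM in knockout blood. Isg20 had a log2 fold change of 0.6 (SE 0.246, adjusted p = 0.453).

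**Figure D5:**
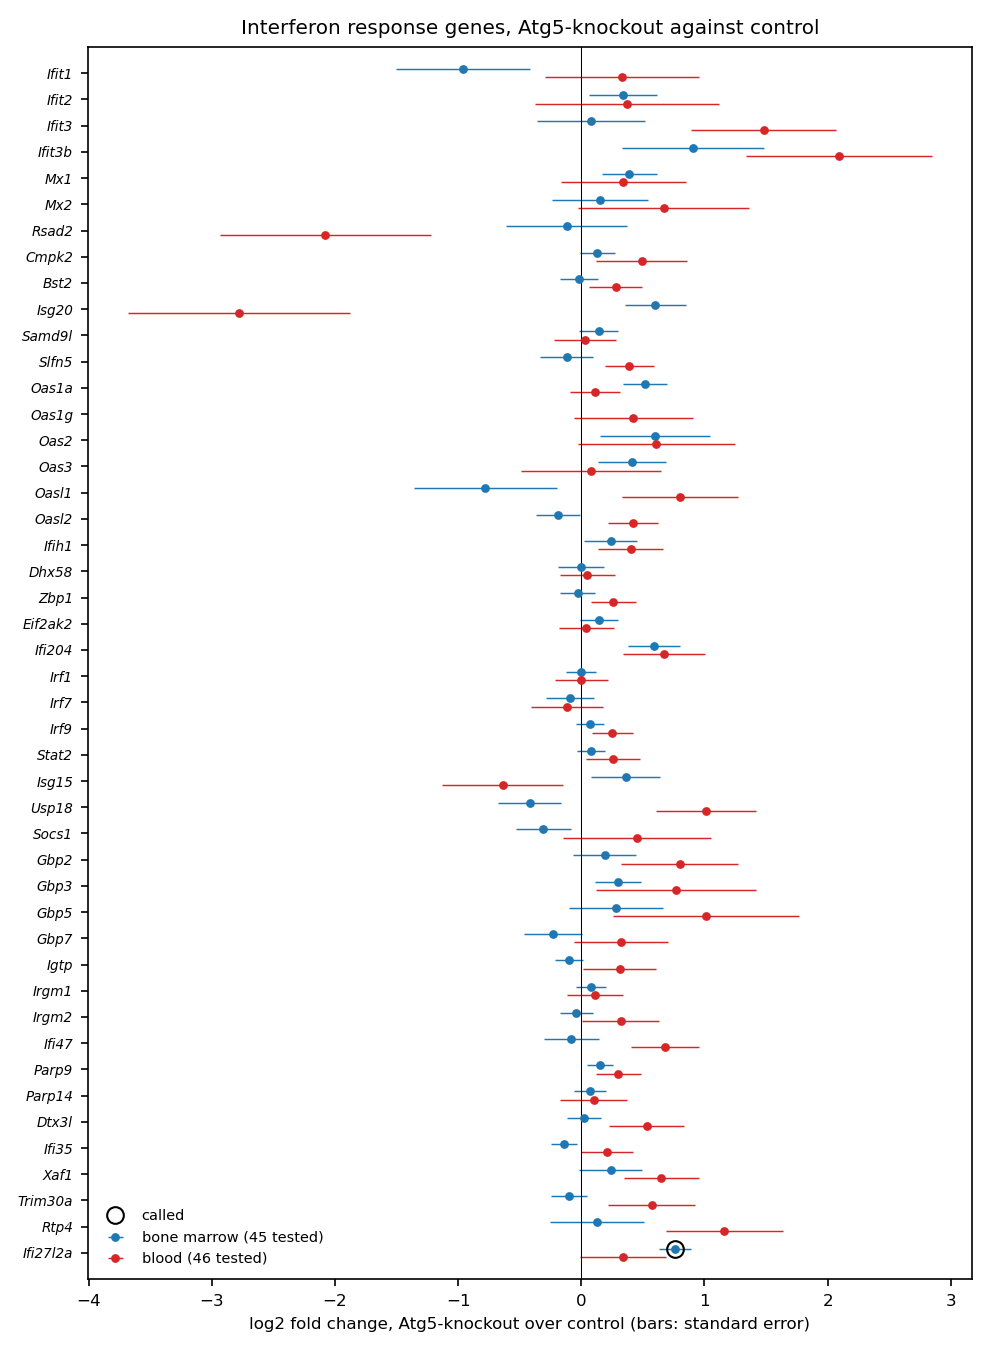
Log2 fold change of Atg5-knockout over control with its standard error for each member, in bone marrow and in blood, and a ring marks a call at an adjusted p under 0.05. The single ring is Ifi27l2a in bone marrow at 0.76, and the widest bars, with standard errors of 0.902, 0.858 and 0.756, belong to Isg20, Rsad2 and Ifit3b in blood.

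In blood, no member was called between genotypes among 46 tested, where 0.0371% of 13460 genes were called higher and 0% lower. At an unadjusted p under 0.05, 5 members were higher in knockout (1.1% of all genes) and 2 lower (1.48%) by edgeR, and DESeq2 and limma-voom called none after adjustment either. The median log2 fold change was 0.34, against 0.01 over all genes, and 41 of 46 members had a positive value, against 51.1% of all genes. Markers of other cells moved with genotype in the same libraries, some higher and some lower. In each pair of blood libraries with the same number, the knockout library was higher in the summed markers of 3 cell types. B cell markers were at 2212, 423 and 297 CPM against 1281, 345 and 174 CPM. T cell markers were at 208, 37.7 and 26.4 CPM against 149, 20.7 and 12.4 CPM. The 6 markers of plasmacytoid dendritic cells, which make type I interferon, were at 213, 47.4 and 38.1 CPM against 121, 28.6 and 17.2 CPM. These sums were highest in the libraries numbered 1, which were also highest in B cell markers. Of the 6 markers, Siglech was at 7.59, 20.3 and 10.7 CPM against 9.82, 7.79 and 3.54 CPM. Siglech was thus lower in knockout in the pair numbered 1. Summed eosinophil markers were lower in each pair, at 17483, 30938 and 30674 CPM against 25821, 32727 and 47259 CPM. Not every gene of that list was. Prg2 was lower in each pair, at 7047, 13632 and 12162 CPM against 10263, 14758 and 23815 CPM. Siglecf (592, 785 and 900 CPM against 736, 931 and 884 CPM) and Ccr3 (1026, 1538 and 1976 CPM against 1224, 1761 and 1744 CPM) were higher in the pair numbered 3. Epx was higher in the pair numbered 2, at 542 against 467 CPM. Summed neutrophil markers were lower too, at 11302, 10407 and 10892 CPM against 12225, 12789 and 13910 CPM. Platelet markers (81, 82.1 and 78.7 CPM against 404, 115 and 182 CPM) and red cell markers were also lower in each pair. NK cell markers and those of monocytes and macrophages were higher in some pairs and lower in others. The part of these cells in the members' values was not tested. With the replicate number as a block, which pairs the blood libraries, 14 members were higher and 1 lower at an unadjusted p under 0.05, none was called (lowest adjusted p = 0.372), and the median was 0.41. In that fit 568 of 13460 genes were higher and 453 lower at this p. Without both blood libraries numbered 1, a choice made after seeing the data, 38 of 46 members were positive, the median was 0.32, and 6 members were higher and 1 lower at an unadjusted p under 0.05. Of 13385 genes, 6792 were then positive, 361 higher and 317 lower. Without knockout blood library 1 alone, the median was 0.21 and 31 of 47 members were positive, with none higher and 1 lower at an unadjusted p under 0.05. Of 13822 genes, 6489 were then positive, 201 higher and 286 lower. Without control blood library 1 alone, the median was 0.58 and 15 members were higher and 1 lower, where 480 and 281 of 13865 genes were.

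The members of lowest p in blood pointed both ways, and all had an adjusted p of 1. Isg20 had a log2 fold change of -2.78 (SE 0.902), with control libraries at 359, 23.8 and 38.2 CPM and knockout libraries at 23.8, 19.8 and 16.6 CPM, and -0.61 without control library 1. Rsad2 likewise was at -2.08 (SE 0.858) and at 0.01 without that library, and Isg15 moved from -0.64 to 0.29. The other direction was held by Ifit3 (1.48, SE 0.591), with 2.99, 1.63 and 1.18 CPM in control and 9.95, 3.16 and 2.86 CPM in knockout, by Ifit3b (2.09, SE 0.756), with 0.427, 0.924 and 0.196 CPM in control and 4.12, 1.22 and 1.28 CPM in knockout, and by Usp18 (1.01, SE 0.406), with 2.56, 6.86 and 3.78 CPM in control and 10.6, 9.21 and 6.49 CPM in knockout. In all 3 the knockout library numbered 1 was the highest, and without both libraries numbered 1 the values were 1.11, 1.15 and 0.57. Ifit3b in bone marrow was at 0.0913, 0.38 and 0.364 CPM in control and 0.511, 0.315 and 0.774 CPM in knockout. Ifi47, an immunity-related GTPase, was at 16.5, 19.8 and 10.1 CPM in control blood and 26.8, 21.7 and 25.2 CPM in knockout blood (0.68, SE 0.276), without overlap, and at 12.8, 25.5 and 21.4 CPM in control marrow and 18.2, 23.1 and 16.2 CPM in knockout marrow. In all, 5 members in blood lay higher in every knockout library than in every control library (3.53% of all genes) and 1 lay lower (4.05%). No gene of the receptor, JAK-STAT, sensing or other interferon-induced lists was called between genotypes in either tissue.

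An interaction term over the 12 libraries compared the effect of the knockout in blood with that in marrow. None of 48 tested members was called, and none of 14712 genes (0%). At an unadjusted p under 0.05, Usp18 was higher (1.38, SE 0.516, adjusted p = 0.942) and Isg20 lower (-3.43, SE 1.05, adjusted p = 0.852). At this p, 1.86% of all genes were higher and 3.17% lower. DESeq2 and limma-voom called none of the members either. The median interaction of the members was 0.19, against -0.04 over all genes. It was 0.06 without control blood library 3 and 0.08 without knockout blood library 1, the lowest values when 1 library was left out. It was 0.13 without control bone marrow library 2 and 0.30 to 0.32 without knockout blood library 3, control bone marrow library 1 or control blood library 1.

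The members also moved together from library to library within a group. Among the 48 members of the interaction fit, 33 (68.8%) were highest in library 1 within control blood, where 40.7% of all genes were, 36 (75%) in library 1 within knockout blood, where 38.8% were, and 36 (75%) in library 2 within knockout bone marrow, where 35.1% were. In control bone marrow, library 1 was the highest for 6 members (12.5%), where 38.3% of all genes were. The summed level of the members was 831, 933 and 956 CPM in control bone marrow, 865, 1022 and 962 CPM in knockout bone marrow, 2236, 1485 and 1206 CPM in control blood and 1965, 1532 and 1521 CPM in knockout blood. All 6 blood sums lay above the marrow sums, and the genotypes overlapped in both tissues.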

How the data were processed

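RNA-seq was measured in 12 libraries of eosinophils. Per the study's methods, a TruSeq stranded mRNA kit, single-end sequencing and alignment with HISAT2 2.2.1 were used. The authors deposited raw read counts per gene without normalization. Its header gives featureCounts 2.0.1 with Ensembl release 92 on GRCm38, while the methods name GRCm39. Coordinates are those of the table. No option for strand, multiply mapped reads or overlapping genes was set, so reads shared by paralogs or overlapping exons were dropped and strands were not separated. Identifiers were matched to GENCODE M39 symbols (49674 matched).

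Counts were tested with edgeR 4.0.16 in R 4.3.3 (quasi-likelihood test, TMM, prior count 0.125, minimum count 10, minimum total count 15) on the 6 libraries of each comparison, or on 12 for the interaction, with Benjamini-Hochberg adjustment over all genes tested. Called means an adjusted p under 0.05; beyond a log2 fold change of 2 the fold threshold of the study also held. The script was tested on simulated data. CPM with TMM over 12 libraries give levels. Alternatives were other size factors and filters, DESeq2 1.42.0, limma-voom (limma 3.58.1), a fit of all libraries, a replicate block and leaving out each library. The floor for a group without counts is 3 counts over the group and covers counting error only, as reads without molecular identifiers are not independent.

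Groups come from the labels. The members and the other lists were chosen with earlier results of these data known. All members are accounted for. Values in every library were given for members called or among the 5 of lowest p in a knockout comparison, the 6 called members of largest change in each tissue comparison, and 8 fixed members; Irgm2 and Zbp1 were added after their values were seen. The same replicate numbers deviated together in blood (correlations 0.595, 0.339 and 0.368 over 14712 genes). Deviations were taken from the mean of 3 libraries and cancel out within each gene, so these correlations are not separate evidence. Unlike numbers were not compared. Pairing of the blood libraries by number is thus an assumption drawn from these data. What equal numbers share is not given in the sources used here. Protein sequences were not used here. Some genes of the other lists are not reported here by name.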

Additional observations from a re-analysis of the deposited data

How the results depend on the processing

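Median log2 fold changes of the members, the interaction included, kept their sign under all alternatives run, except in bone marrow between genotypes, where leaving out a library gave -0.0045 to 0.155. Members called higher between genotypes in bone marrow numbered 3 without a filter on low counts, 0 with the replicate block, 0 in the fit of all 12 libraries and 0 to 1 when a library was left out, against 1. Without a filter, 2 members were lower in knockout blood and 2 were called in the interaction, against none. Isg20 in blood between genotypes then had an adjusted p of 0.000171. In control, members lower in blood numbered 3 with library size alone, 2 without a filter and 1 to 3 when a library was left out, against 1, and in knockout 1 to 3, against 2. Counts over all genes also moved: in bone marrow between genotypes 161 higher and 259 lower without a filter and 60 and 136 with DESeq2, against 20 and 28, and in blood 18 and 59 and 13 and 9, against 5 and 0. The cause of these changes was not tested.

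Signs that reversed belong to members that were not called. Irf1 between genotypes in bone marrow, at 0.00, was at -0.0063 with DESeq2-type size factors and with DESeq2, -0.0010 with the filter of 1 CPM and with limma-voom, -0.00073 with the block and -0.11 to 0.067 when a library was left out. In blood it was at 0.11 with library size alone and -0.24 to 0.11 when a library was left out. Irf9 between tissues in knockout was at -0.20 with library size alone, -0.031 without a filter and -0.088 to 0.081 when a library was left out. Isg15 between genotypes in blood was at 0.063 without both blood libraries numbered 1 (chosen after seeing the data) and -0.98 to 0.29 when 1 library was left out. Leaving out a library gave -0.29 to 0.084 for Irf7 and -0.0022 to 0.15 for Stat2 between genotypes in bone marrow, -0.42 to 0.18 for Irf7 and -0.073 to 1.37 for Socs1 between genotypes in blood, -0.14 to 0.031 for Irf1 and -0.23 to 1.13 for Socs1 between tissues in control, and -0.30 to 0.041 for Irf1 between tissues in knockout.

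The replicate block left 19 members higher and 1 lower in control and 25 and 2 in knockout between tissues; outside blood the samples share only a number (correlations of -0.196 to 0.159). In blood the block, which pairs the libraries, changed no call of a member. Where 1 sample less was used, the test had fewer libraries. Depth limits Cxcl9 and Tgtp1, which reached the filter in no fit with it, and Ifi44 and Iigp1, which reached it in the fits of all 12 libraries only.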

Other observations

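Ifi27l2a, the member called between genotypes in bone marrow, lies on chromosome 12 among 19 other genes that were tested within 1 Mb, of which 2 were also called there. Serpina11, 537 kb away, was lower in knockout (log2 fold change -3.71, SE 0.130, adjusted p = 2.06e-08 by edgeR), and Serpina9 was higher (3.31, SE 0.475, adjusted p = 0.0102). Ifi27, the neighbouring relative of Ifi27l2a, was at 0.30 (SE 0.119, adjusted p = 0.448).

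Among members with a promoter window that were tested between tissues, the ISRE letters were present in 8 of 12 (66.7%) called higher in blood in control and 12 of 21 (57.1%) not called. In knockout they were present in 14 of 19 (73.7%) called higher and 6 of 14 (42.9%) not called, and both members called lower, Irgm2 and Eif2ak2, carried them. These shares were computed after the calls were known and are a description without a test.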
